A study of Sus scrofa and Rattus norvegicus with 6 samples.

Results

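Messenger RNAs of the mitochondrial genes COX1, COX2, COX3 and CYTB were examined in 3 pig libraries made from adherent cultures of cells dissected from the central canal region of adult spinal cord. The 4 transcripts were picked by a rule that uses identifier and length and no measured value, although the rule was written with earlier results of these data known. They are 4 of the 62843 pig transcript models (102946 over pig and rat). The pigs are labelled wild-type and adult, and the cultures, which received no treatment, had been expanded without serum on a coated surface, in DMEM/F12 with N2/B27, heparin, EGF and FGF2. The series also holds 3 rat libraries grown in the same way, in which none of these transcripts is quantified. Whether the 3 pig libraries represent different animals or cultures is not said in the labels. SDs therefore describe the scatter of these libraries, which could be technical. The p-values hold for these libraries alone and do not measure that scatter.

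Cytochrome c oxidase, or complex IV, is the last enzyme of the mitochondrial electron transport chain and passes electrons from cytochrome c to oxygen. Its catalytic core is formed by COX1, COX2 and COX3, which the mitochondrial genome encodes, and its remaining subunits come from nuclear genes. Cytochrome b, the product of CYTB, is the mitochondrially encoded subunit of complex III, which hands electrons from ubiquinol to cytochrome c. Mammalian mitochondrial genes are transcribed as long precursors that are cut, mostly at the tRNAs between the genes, into messenger RNAs. Most of these then receive a short poly(A) tail.

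The deposited files name transcripts only by identifier, so the identity of the members was checked against the order of the mitochondrial genes in pig RefSeq (assembly Sscrofa11.1). A run of 37 consecutive identifiers matched the lengths of all 37 mitochondrial genes of that table, in gene order, with 37 equal lengths. This run holds 13 protein-coding, 22 tRNA and 2 rRNA models. ENSSSCT00000019670, of 1545 bases, stood at the place of COX1. ENSSSCT00000019673, of 688 bases, stood at that of COX2, ENSSSCT00000019677, of 784 bases, at that of COX3, and ENSSSCT00000019689, of 1140 bases, at that of CYTB. Length alone would not have named them, since 16 pig models have the length of COX1 and 20 that of CYTB. No sequence was compared. Nuclear subunit genes and the markers of ependymal cells, astrocytes and other cell types were not analysed here, because the files do not pair identifiers with genes, so the labelled cell type was not checked against markers.

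The lengths themselves differ in one respect that is known of mitochondrial messages. The models of COX1 and CYTB are divisible by 3, into 515 and 380 codons, while those of COX2 and COX3 leave a remainder of 1 base after 229 and 261 codons. As background, several mitochondrial genes end in an incomplete stop codon that the poly(A) tail completes.

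In gene order, COX1 and COX2 are separated by 2 tRNA genes and no protein-coding gene. Between COX2 and COX3 lie 1 tRNA gene and the ATP8 and ATP6 genes, and COX3 follows ATP6 directly. CYTB is the 13th and last protein-coding gene in that order, with 5 protein-coding and 6 tRNA genes between it and COX3.

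The pig libraries 1, 2 and 3 held 37593182, 37554724 and 32211354 estimated counts, so library 3 was the shallowest. Every member had at least 40751 estimated counts in each library, and all of them were whole numbers to the 3 decimals of the files. Of the 27694 pig models whose estimated counts averaged at least 10, 4364 (15.8%) had whole counts in all 3 libraries. A model gets a whole count when none of its reads is divided with another model.

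The 3 cytochrome oxidase messages were among the most abundant transcripts of the cultures. Levels are given in TPM as the authors deposited them, a measure per effective length whose total is the same in every library. COX1, the subunit that carries the heme groups and the copper centre where oxygen is reduced, was at 15497, 16358 and 14456 TPM in libraries 1, 2 and 3. Its mean was 15437 ± 952 TPM (SD, n = 3), which ranked 5 among all pig models. COX2, whose copper centre accepts electrons from cytochrome c, was at 12474, 13968 and 12006 TPM. Its mean was 12816 ± 1025 TPM (SD, n = 3), and its rank was 7. All COX1 libraries lay above all COX2 libraries.

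COX3, a core subunit without a redox centre, was at 12700, 14080 and 10934 TPM in libraries 1, 2 and 3. Its mean of 12571 ± 1577 TPM (SD, n = 3) ranked 8, directly after COX2, and its libraries overlapped those of COX2 while lying below all those of COX1. CYTB was far lower, at 1660, 1872 and 2404 TPM, with a mean of 1979 ± 384 TPM (SD, n = 3) that ranked 58. Within libraries 1, 2 and 3 it ranked 84, 61 and 46. The lowest library of any cytochrome oxidase message was thus well above the highest library of CYTB. Library 2 was the highest for the 3 cytochrome oxidase messages and library 3 the highest for CYTB.

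All 4 members reached 1000 TPM in every pig library, a level that 0.172% of the 62843 models reached (108 models). A level of 1 TPM in every library was reached by 28.1% of them. In bulk RNA, a lower level can mean fewer cells of a type or less RNA per cell, which cannot be told apart. The model ranked directly above COX1 was that of ATP6, at 17018 ± 1302 TPM (SD, n = 3), and the libraries of the 2 overlapped. The neighbours of CYTB by mean TPM, ranked 57 and 59, had means of 1979 and 1978 TPM, and their libraries overlapped those of CYTB.

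**Figure D1:**
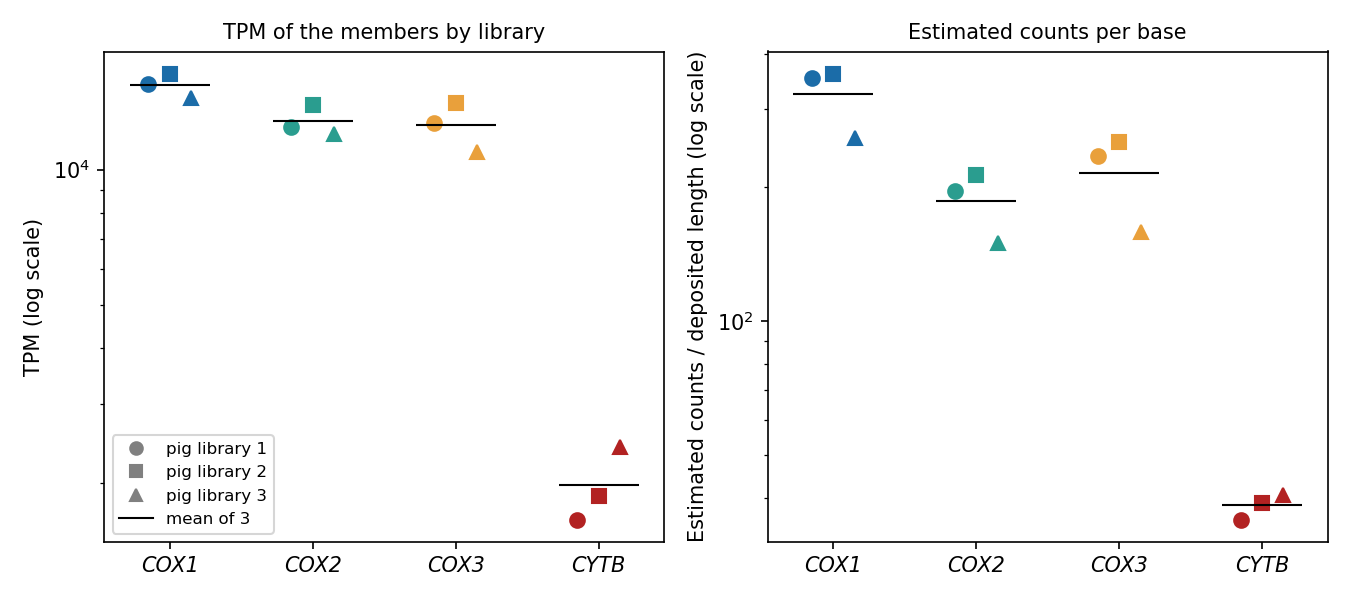
TPM (left) and estimated counts per base of deposited length (right, not scaled for library depth) of the 4 members, both on log axes; each symbol is 1 pig library and the black line is the mean of 3. CYTB lies below the 3 cytochrome oxidase messages in every library, and its highest TPM is in library 3, where the other members have their lowest.

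As a share of each library's estimated counts, COX1 held 1.45%, 1.48% and 1.24% in libraries 1, 2 and 3, or 543954, 556333 and 399383 estimated counts. It ranked 2 among all pig models by estimated count in each of the 3 libraries. COX3 held 0.469% ± 0.0735 and COX2 0.357% ± 0.0359 of the counts (SD, n = 3 each), and CYTB held 0.124% ± 0.0182 (SD, n = 3). The count of CYTB was 40751, 44516 and 46326, so it was highest in the shallowest library. Counting error was small beside these differences: the exact 95% Poisson interval for CYTB in library 1 ran from 40356 to 41149 estimated counts. Such intervals cover counting error only, since reads without molecular identifiers are not independent molecules.

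Together the 4 members took 4.28% ± 0.327 of all TPM and 2.34% ± 0.223 of all estimated counts (SD, n = 3). Among the estimated counts of the 13 mitochondrial protein-coding models, COX1, COX2 and COX3 held 61.1%, 59.2% and 57.7% in libraries 1, 2 and 3. COX1 alone held 37.2% ± 1.08 of them (SD, n = 3). The part of COX2 was 9.55%, 9.64% and 9.47%, which is nearly the same in the 3 libraries. That of COX3 was lowest in library 3, at 11.5% (mean 12.5% ± 0.919, SD, n = 3). That of CYTB was 2.88%, 2.92% and 4.26%, so it was highest in library 3.

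TPM depends on the effective length that Salmon estimated for each model, and this differed among the members. COX1 kept 81.6% to 82.4% of its length as effective length, CYTB 77.3% to 77.9%, COX3 66.7% to 67.1% and COX2 56.5% to 57.5%. In bases, the length exceeded the effective length by 277 ± 6.81 for COX1, 296 ± 3.37 for COX2, 259 ± 1.75 for COX3 and 254 ± 3.67 for CYTB (SD, n = 3 each). The median excess among models longer than 600 bases without reads was 251 bases in library 1. COX2, the shortest member, had the smallest effective length, 392 ± 3.37 bases (SD, n = 3), and so the most TPM per estimated count.

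Estimated counts per base of the deposited length do not use the effective length. On this scale COX1 stood at 352, 360 and 258 per base in libraries 1, 2 and 3, the highest of the 13 mitochondrial protein-coding models in each library. COX3 followed with 236, 253 and 159, above COX2 with 196, 214 and 150 in each library. CYTB had 35.7, 39.0 and 40.6 estimated counts per base and ranked 10 of 13. In TPM, by contrast, COX1 ranked 3 of 13, after ATP8, whose effective length was 9 bases, and ATP6, and CYTB ranked 12 of 13.

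Ratios between members were taken within each library, where scaling between libraries cancels. In TPM, COX1 was 1.24, 1.17 and 1.20 times COX2 in libraries 1, 2 and 3, and 1.22, 1.16 and 1.32 times COX3. COX2 to COX3 was 0.982, 0.992 and 1.10, so the order of these 2 messages was not the same in all libraries. On the log2 scale the mean ratio of COX1 to COX2 was 0.27 ± 0.043, that of COX1 to COX3 was 0.30 ± 0.094 and that of COX2 to COX3 was 0.032 ± 0.089 (SD, n = 3 each). The messages of the 3 core subunits thus lay within 1.32-fold of each other in each library, with COX1 above the others in 3 of 3 libraries.

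The cytochrome oxidase messages exceeded CYTB several-fold, and less so in library 3. The ratio of COX1 to CYTB was 9.34, 8.74 and 6.01 in libraries 1, 2 and 3. That of COX2 to CYTB was 7.52, 7.46 and 4.99. That of COX3 to CYTB was 7.65, 7.52 and 4.55, with exact 95% binomial intervals of 7.57 to 7.74, 7.44 to 7.60 and 4.50 to 4.60 for counting error alone. Libraries 1 and 2 lay close together for COX2 and COX3 against CYTB, and library 3 lay below their counting intervals. The mean log2 ratios to CYTB were 2.98 ± 0.34 for COX1, 2.71 ± 0.34 for COX2 and 2.68 ± 0.43 for COX3 (SD, n = 3 each), and without library 3 the last was 2.92.

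The 6 ratios were tested over libraries with an exact two-sided sign-flip permutation test. With 3 libraries its smallest p is 0.25, so no ratio could pass 0.05. The exact permutation p was 0.25 (0.3 after Benjamini-Hochberg adjustment over 6 pairs) for the 5 ratios with the same sign in 3 of 3 libraries, and it was 1 for COX2 to COX3.

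The ratios within complex IV also varied with the treatment of length. With the deposited length as the divisor, the log2 ratio of COX1 to COX2 was 0.80 ± 0.045, against 0.27 in TPM, and that of COX1 to COX3 was 0.60 ± 0.098 (SD, n = 3 each). That of COX2 to COX3 turned to -0.20 ± 0.098 (SD, n = 3, exact permutation p = 0.25), with COX3 higher in 3 of 3 libraries. With length minus 250 bases the ratio of COX1 to COX3 was 0.30, as in TPM, and that of COX2 to COX3 was -0.10 ± 0.098 (SD, n = 3). In TPM COX3 was the higher in 2 of 3 libraries, and without library 3 the mean log2 ratio of COX2 to COX3 was -0.019. The order of COX2 and COX3 thus differed both between libraries and between treatments of length. With the deposited length, the excess of each cytochrome oxidase message over CYTB kept its direction, at 3.06, 2.26 and 2.46 on the log2 scale for COX1, COX2 and COX3.

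**Figure D2:**
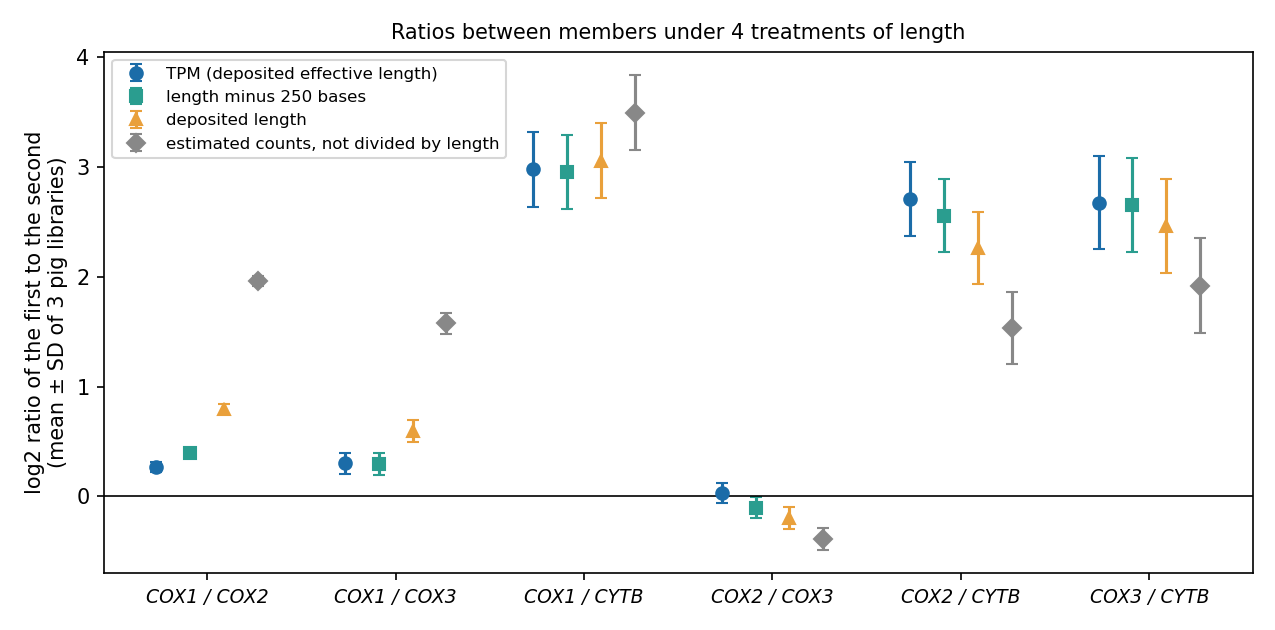
Mean log2 ratio (bars show the SD over 3 pig libraries) for the 6 pairs of members, with TPM, length minus 250 bases, the deposited length, or no division by length. The 3 ratios to CYTB lie above 0 under each treatment, between 1.53 and 3.50, while COX2 / COX3 lies at 0.032 in TPM and below 0 under the other treatments.

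The spread of a member between libraries was measured as the highest over the lowest of the 3 TPM values. It was 1.13-fold for COX1, 1.16-fold for COX2, 1.29-fold for COX3 and 1.45-fold for CYTB. A spread of at least 1.5-fold was seen in 0 of the 4 members, and in 57% of the 27694 pig models whose estimated counts averaged at least 10. Among the 6440 models whose estimated counts averaged at least 1000, which are closer to the members in depth, 21.5% had such a spread. Models with a library at 0 were counted as having it, which were 4445 of the 27694 and 15 of the 6440. The median spread of those 6440 models was 1.26-fold. COX1 had a wider spread than 21.0% of them, COX2 than 29.0%, COX3 than 55.6% and CYTB than 74.7%, so the members lay on both sides of that median. Without library 3 the log2 spread of CYTB was 0.17 and that of COX3 0.15, against 0.53 and 0.36 with it. A fall was bound to follow, since library 3 was the highest for CYTB and the lowest for COX3. In counts scaled to the library total (CPM), COX3 spread more than CYTB, at 0.45 against 0.41.

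**Figure D3:**
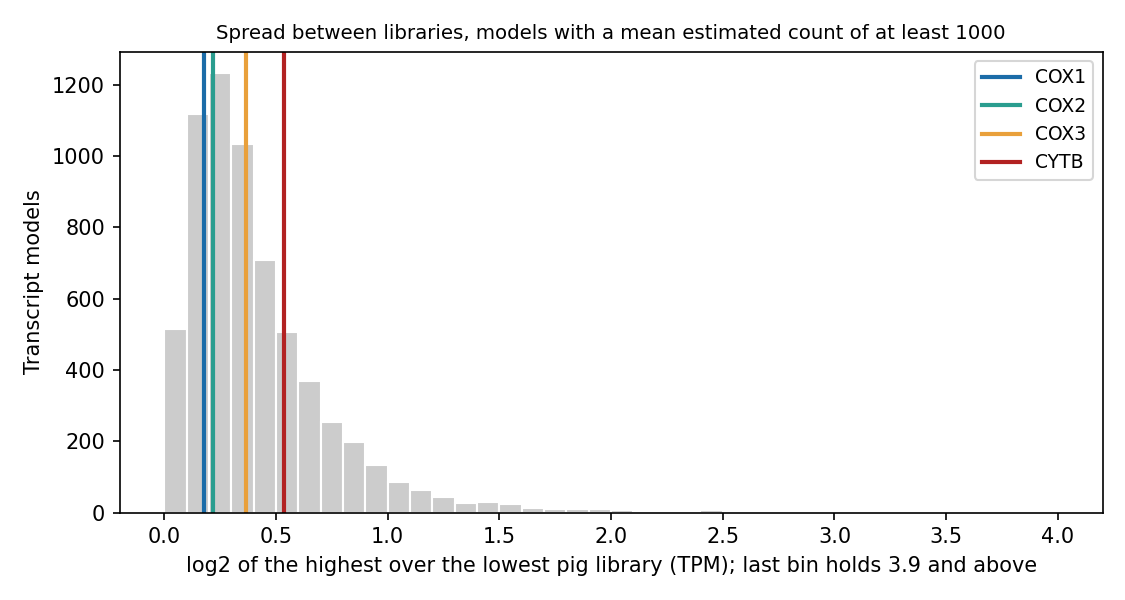
Distribution of the log2 ratio of the highest to the lowest pig library in TPM over models whose estimated counts averaged at least 1000 (15 models with a library at 0 are left out), with a vertical line for each member. COX1 (0.18) and COX2 (0.22) lie below the median of 0.33, COX3 (0.36) just above it and CYTB (0.53) farther to the right.

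Library 3 separated CYTB from the other members. In TPM, library 3 was lower than both other libraries for COX1, COX2 and COX3 and higher than both for CYTB. Among the 6440 models whose estimated counts averaged at least 1000, library 3 was the highest in 53.6% and the lowest in 24.5%, so neither position was rare. Library 3 against the mean of libraries 1 and 2 gave log2 differences of -0.14 for COX1, -0.14 for COX2, -0.29 for COX3 and 0.45 for CYTB. The median of this difference was 0.12 over models whose estimated counts averaged at least 1000 and no library at 0. Relative to that median the differences were -0.26, -0.25, -0.41 and 0.33. COX3 lay at percentile 8.33 of those models and CYTB at percentile 81.9.

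The direction of library 3 was the same for each member with the deposited length, with CPM, and with the size factors of edgeR and DESeq2. Its size changed for CYTB from 0.45 in TPM to 0.32 with DESeq2 size factors. For COX1, COX2 and COX3 the same change of scale gave -0.26, -0.25 and -0.42, farther from the libraries 1 and 2 than in TPM. Relative to the median over models the differences hardly changed, and that of CYTB was 0.33 on both scales. Subtracting the median cancels any factor that scales a whole library. Size factors therefore could not change these relative values, and their agreement says nothing on stability. Library 3 was also the shallowest, and the part of depth in these differences was not tested.

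The 9 other mitochondrial protein-coding models showed what library 3 did outside the members. These are the models at the places of the 7 complex I subunits, the largest group of mitochondrial genes, and of ATP8 and ATP6, subunits of the ATP synthase. Their log2 differences of library 3 from libraries 1 and 2 ran from -0.20 to 0.08, with a median of -0.045. CYTB, at 0.45, lay above this range and COX3, at -0.29, below it. Library 3 was the highest of 3 for 1 of the 9, ND6, which is transcribed from the other strand of the genome, and the lowest for 2, ND3 and ND5. Library 2 was the highest for 8 of the 9 and for 3 of the 4 members, and for 27.4% of the 6440 models.

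**Figure D4:**
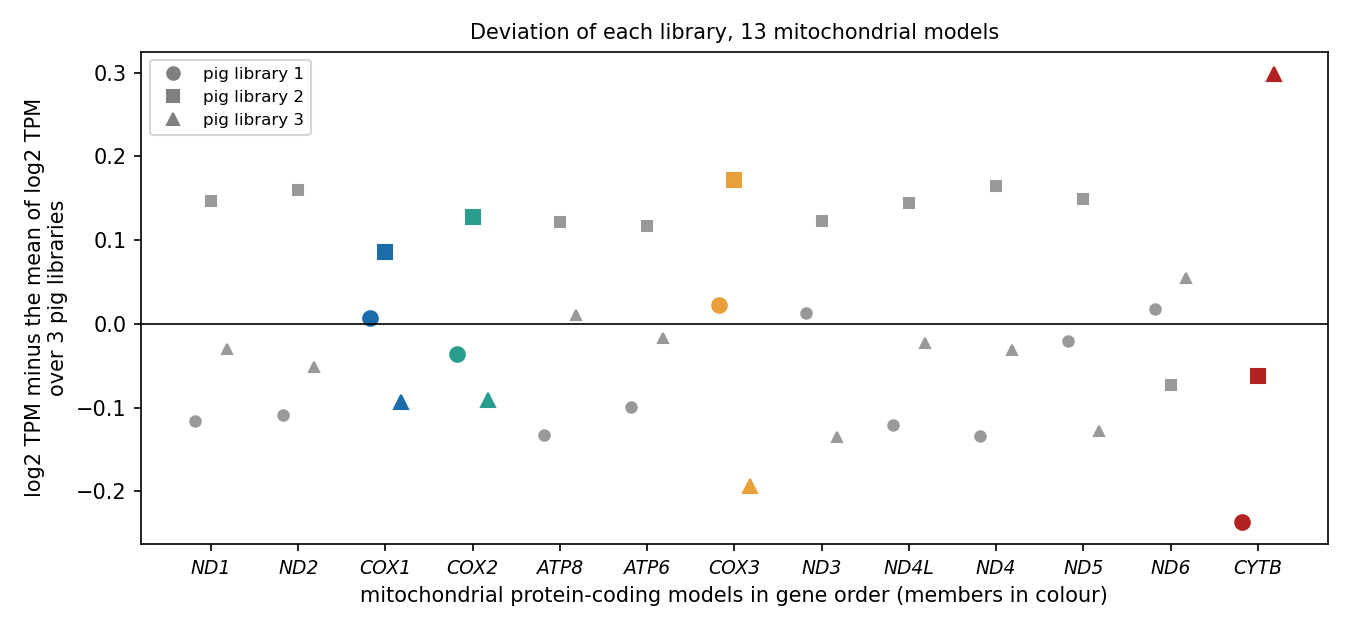
Deviation of log2 TPM in each pig library from the mean of the 3 libraries, for the 13 mitochondrial protein-coding models in gene order, with the members in colour and the other models in grey. Library 2 (squares) is highest for all models except ND6 and CYTB, and CYTB in library 3 (0.30) is the farthest point above the mean.

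Members were also set against their neighbours in gene order. The ratio of COX3 to ATP6, the gene it follows with no tRNA between them, was 0.801, 0.764 and 0.652 in TPM in libraries 1, 2 and 3. That of COX2 to ATP6 varied less, at 0.787, 0.758 and 0.715. CYTB to ND5, which is upstream of it, was 0.626, 0.628 and 0.977. Libraries 1 and 2 hardly differed in this ratio and library 3 stood above both. CYTB to ND6, the protein-coding gene next to it, was 2.43, 2.92 and 3.43, so library 3 was again the highest but libraries 1 and 2 differed too.

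The members' median TPM was compared with that of the other 9 models within each library. It was 12587, 14024 and 11470 for the members and 2904, 3499 and 3020 for the others, and the ratio was 4.04 ± 0.270 (SD, n = 3). The log2 difference was 2.01 ± 0.096 (SD, n = 3, exact two-sided sign-flip permutation p = 0.25, the smallest possible). The members did not form a uniform group, since COX1, COX2 and COX3 ranked 3, 4 and 5 of 13 by mean TPM and CYTB ranked 12, above ND6 alone. Mean TPM of the others ran from 675 for ND6 to 68880 for ATP8, whose effective length was 9 bases. In estimated counts per base of deposited length, ATP8 ranked 5 of 13 in each library.

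The tRNA models next to the members were practically without reads. Of the 22 tRNA models, 21 had 0 estimated counts in all 3 libraries, among them both between COX1 and COX2, and the other had at most 10. A count of 0 allows up to 3 counts. These models are shorter than the reads of 150 bases and have an effective length of 2 bases, so tRNA levels were not measurable here.

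The pattern over the 3 libraries that was most like each member was sought among the other 6421 models whose estimated counts averaged at least 1000 and no library at 0. Likeness was the root mean square distance between log2 deviations from the mean over libraries. Many models came within 0.05 of each member: 439 for COX1, 372 for COX2, 183 for COX3 and 274 for CYTB. With 3 libraries a close match is therefore common, and the nearest model to each member, at 0.0016 to 0.0032, has no gene name in the files. Among the 13 mitochondrial models, ND3 was nearest to COX1 (0.033) and to COX3 (0.044) and ND5 to COX2 (0.026). CYTB was farther from its nearest, ND6 (0.203).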

How the data were processed

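Per the series' design text, the authors made stranded poly(A) libraries, read single-end for 150 bases, and quantified them with Salmon on transcript models of Ensembl 104. The submitters' processing notes give Salmon's version as 1. Per the file headers, each deposited file gives length, effective length, TPM and estimated counts per transcript. The notes list the build rn6 for all samples; the pig build and the settings are not given in the sources used. RefSeq was used only for names and gene order. Python 3.11.15 with pandas 2.3.3 was used; edgeR 4.0.16 (TMM) and DESeq2 1.42.0 in R 4.3.3 gave alternative size factors from rounded estimated counts. Tests were exact sign-flip permutation tests over 3 libraries; log2 ratios of TPM used no pseudocount. A log2 change of library 3 against libraries 1 and 2 was checked on simulated counts with known fold changes. No result rests on that check.

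The rule for the members uses no measured value, but it, the lists and the other rules were chosen with earlier results of these data known. Named are the 4 members, the highest and lowest of the other mitochondrial models, rank neighbours and nearest patterns. The fixed lists of cell type markers and nuclear complex III and IV subunits have no result, since the files carry no gene names. Alternatives covered the length divisor, scaling, pseudocount and libraries left out. Rat libraries entered no comparison.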

Additional observations from a re-analysis of the deposited data

How the results depend on the processing

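With 3 libraries no test could pass 0.05, so the tests say nothing on stability, and the values rest on 1 group. The mean level moved by more than the SD between libraries in 9 of 24 alternatives. All 9 were changes of the length divisor or of the models used for scaling. The alternatives without 1 library could not count as moved, since leaving out 1 of 3 values shifts a mean by less than the SD. With the deposited length the mean level was 18853 for COX1 and 10876 for COX2. With length minus 250 bases it was 8411, 6383, 6866 and 1097 for COX1, COX2, COX3 and CYTB. Models of 250 bases or less, ATP8 among them, were divided by 1 base there. That raised the total to which all models are scaled, so these lower values are not a change in the members themselves. Without models under 300 bases it was 17649, 14655 and 14378 TPM for COX1, COX2 and COX3. Without 1 library it ranged from 14977 to 15928, 12240 to 13221, 11817 to 13390 and 1766 to 2138 TPM. The log2 ratio of COX2 to COX3 reversed from 0.032 to -0.20 with the deposited length, -0.10 with length minus 250 bases and -0.39 for undivided estimated counts, and it ranged from -0.019 (without library 3) to 0.062. The other 5 ratios kept their sign with the deposited length, with length minus 250 bases and with undivided estimated counts. Under the remaining alternatives their sign could not change. They were positive in 3 of 3 libraries, a pseudocount added to both members cannot reverse them, and the unpaired test uses the same values. The main ratios compare members within a library. With no replicate block, an unpaired exact permutation test gave p = 0.1 for the same 5 ratios (log2 0.27 for COX1 to COX2, for example) and p = 1 for COX2 to COX3, and 0.1 is the smallest that 3 against 3 values allow. The log2 of the highest over the lowest library was 0.26, 0.29, 0.45 and 0.41 for COX1, COX2, COX3 and CYTB in CPM, 0.27, 0.30, 0.46 and 0.38 with TMM factors, and 0.27, 0.31, 0.47 and 0.37 with DESeq2 size factors, so that COX3 then exceeded CYTB. Without 1 library it ranged from 0.078 to 0.18, 0.055 to 0.22, 0.15 to 0.36 and 0.17 to 0.53, and the lowest values for COX1, COX3 and CYTB came without library 3. Leaving out a library cannot widen this measure. The shares of estimated counts were recomputed only without 1 library. That could not shift their means by as much as the SD, so their stability was not tested. The members' excess over the other mitochondrial models ranged from log2 1.88 to 2.06 under the alternatives run, against 2.01 in the main setting. The cause of these changes was not tested further.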
